A study of Mus musculus with 12 samples.

Results

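The regions described here are the m6A peaks of the list labelled case that shared no base with any peak of the list labelled control. They numbered 11171 of the 17277 peaks of the case list (64.7%, 95% exact interval 63.9 to 65.4%) and lay in 6426 genes. They are called unshared case peaks below, and the other 6106 peaks of the case list, which shared at least 1 base with a control peak, are called shared case peaks. They were chosen by the coordinates of the peaks in these 2 lists, so their number and their lack of control overlap are a description and not a result. The control list held 17175 peaks, of which 11073 (64.5%) in turn shared no base with a case peak.

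The series measured m6A in liver RNA of male C57BL/6 mice aged 8 weeks, with Mettl3 knocked out in the liver (cKO) or wild type. The labels give 12 samples in 4 groups of 3: cKO immunoprecipitate (IP), wild-type IP, cKO input and wild-type input. In the assay, an antibody against m6A bound RNA fragments over 2 hours at 4 °C, beads captured them, and the captured RNA and the input were both read from each end over 150 bases. The Cre line behind the knockout is not given in the sources used here. Case was read as cKO and control as wild type because the series has these 2 genotypes. No label states that reading, or which of the 3 livers each list came from. So they are named as the library labelled case and the library labelled control. Each had 1 peak list and 1 input column, so no difference below has a replicate check. All intervals are 95% exact Clopper-Pearson intervals that cover counting error only, and peaks of 1 gene share their source. A further 4 peak lists are named by library numbers, shown on the axis of the plot of recurrence, which match no label. They were given no genotype, were used to count how often a region recurred, and are told apart below by their lengths of 2424, 1624, 1127 and 1052 peaks.

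N6-methyladenosine is the most abundant internal modification of mRNA. A nuclear complex writes it, with METTL3 as the catalytic subunit and METTL14 as its partner. FTO and ALKBH5 can remove it, and proteins with a YTH domain bind it. In mammalian transcripts it is known to lie mostly near stop codons, in 3' untranslated regions and in long internal exons, at the short motif GGAC followed by A, C or U. In many transcripts it marks the RNA for faster decay.

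The targeted gene did not settle which library is the knockout. Mettl3 was at 2.91 FPKM (fragments per unit of transcript length and of library size, the deposited expression unit) in the input labelled case and at 3.44 FPKM in the input labelled control, a log2 difference of -0.18. These levels rest on 17 fragments in case and 12 in control over the whole gene, so they show no loss of the target and do not tell the genotypes apart. Mettl3 carried no peak in the case or the control list. The inputs held about 3564830 fragments for case and 1737374 for control. Hepatocyte markers stood high in both, with Alb at 21158 FPKM in the case input and 11189 FPKM in the control input.

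Sequence could be read only where a peak reached the first 50 transcribed bases of a gene, the part of the transcript that the RefSeq windows (build GRCm38.p6, the coordinates of mm10) cover. Of the unshared case peaks, 171 covered those 50 bases, and 28 of them (16.4%, 11.2 to 22.8%) held GGAC followed by A, C or T there on the strand of the gene. Among shared case peaks the same count was 7 of 51 (13.7%, 5.70 to 26.3%), and among all RefSeq windows it was 5074 of 32851 (15.4%). The share of unshared peaks with the motif was thus near that of all gene starts. The opposite strand held the motif in 20 of the 171 unshared peaks (11.7%) and in 14.4% of all windows. For the 4 letters GGAC alone, which every longer motif contains, the counts were 39 of 171 (22.8%, 16.7 to 29.8%), 7 of 51 (13.7%) and 18.9% of all windows. The following lines print 30 bases near gene starts, to show what the motif looks like in unshared peaks that cover it. They are the 6 first by recurrence and then by enrichment among 31 genes with an unshared peak over a motif after the start, written 5' to 3' on the gene's strand with the motif in capitals.
Junb, chr8:84978699-84978728, minus strand: gccgagcactggGGACTttgagggtggcca
Tgtp1, chr11:48992197-48992226, minus strand: gtggacaagtaaGGACAaagaaactcaggg
Mmp14, chr14:54431604-54431633, plus strand: ggagaagggagGGACCaaaggagagcagag
Clec4f, chr6:83656067-83656096, minus strand: gctctcactactgtgggcttgcaGGACAgg
S100a11, chr3:93520516-93520545, plus strand: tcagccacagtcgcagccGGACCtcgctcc
Hk2, chr6:82774405-82774434, minus strand: gctggagtctcaGGACAccacaggctaccc

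These 6 genes differ in what they encode. Junb encodes a subunit of the transcription factor AP-1, and its unshared peak of 1840 bases (chr8:84976909-84978748, 10.2-fold enriched) spanned the whole gene and recurred in 2 numbered lists. Tgtp1 encodes an interferon-induced GTPase, and its peak (chr11:48992020-48992258, 13.5-fold) recurred in 1 list. Mmp14 encodes a membrane-bound matrix metalloproteinase, Clec4f a lectin of Kupffer cells, S100a11 a calcium-binding protein and Hk2 a hexokinase. Their peaks over the printed motif, enriched 142-fold, 104-fold, 48.3-fold and 43.8-fold in that order, recurred in no numbered list.

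MicroRNA hairpins were the other sequence the RefSeq tables gave. Among the 11171 unshared case peaks, 7 met a hairpin, 4 of them held the whole hairpin, and none of the 7 recurred in a numbered list. Among the 6106 shared case peaks, 10 met a hairpin, 5 held it whole, and 5 recurred in all 4 numbered lists. The mature miRNAs of the whole hairpins in unshared peaks are printed first, and 3 of those in shared peaks that recurred in all 4 lists after them, with the seed (bases 2 to 8) in capitals. No seed is shared between the lines.
miR-2139, in an unshared peak of Klhdc7a: aGCUGCGCugcuccugguaacugc
miR-8115, in an unshared peak of P2rx7: cCGCAAUAgcaacaagggcucu
miR-5131, in an unshared peak of Ddhd1: cGGCGCCCcacggagccccgagc
miR-5114, in an unshared peak of Scd2: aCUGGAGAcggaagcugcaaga
miR-21a-5p, in a shared peak assigned to Vmp1: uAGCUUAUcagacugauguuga
miR-10a-5p, in a shared peak assigned to Hoxb4: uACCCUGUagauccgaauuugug
miR-127-3p, in a shared peak assigned to Rtl1: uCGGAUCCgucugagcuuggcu

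The unshared peaks around these hairpins were the peak of P2rx7, an ATP-gated channel (chr5:122682453-122682793, 45.0-fold), that of Klhdc7a (chr4:139967302-139967646, 15.9-fold), that of Scd2, a stearoyl-CoA desaturase (chr19:44303001-44303369, 11.2-fold), and that of Ddhd1, a phospholipase (chr14:45657635-45658143, 8.99-fold). RefSeq places Mir127 on the strand opposite to Rtl1, and the strand of the reads is not given, so peaks there cannot be assigned to either gene. Small nucleolar RNA genes showed a similar split. An annotated snoRNA gene was met by 2 of 11171 unshared peaks (0.0179%, 0.00217 to 0.0647%) and by 11 of 6106 shared peaks (0.180%, 0.0900 to 0.322%). Control peaks that met no case peak were as seldom on one, with 3 of 11073 (0.0271%, 0.00559 to 0.0792%).

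At the edge of the rule, unshared case peaks mostly lay far from control peaks. Their distance to the nearest control peak had a median of 10686 bases and a middle range of 2403 to 43284 bases. Within 1000 bases of a control peak lay 1534 of them (13.7%), and within 200 bases 371 (3.32%). The closest, in Zfp955a (chr17:33239938-33240137), touched a control peak without sharing a base. Next came peaks of Ptbp3 and Taf5l, 2 bases away, and of Ap1ar and Baz2a, 3 bases away. On the other side, peaks of Pelp1 and Fdx1l shared 1 base with a control peak and so were not counted, and peaks of Ccdc59, Hmgn1 and G3bp1 shared 2. The median shared case peak was 100% covered by control peaks, and 770 of the 6106 (12.6%) were covered for less than 50% of their length.

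Unshared case peaks were shorter than shared ones. Their median length was 193 bases (interval of the median 187 to 198), with a middle range of 96 to 340, against 311 bases with a middle range of 158 to 492 for shared case peaks. The control list showed the same, with a median of 192 bases for control peaks that met no case peak and 314.5 bases for the other control peaks. In all they covered 2.51 Mb, and the fewer shared peaks 2.42 Mb. A longer peak has more bases with which to meet another, so length is not independent of the rule: 80.2% of case peaks of up to 100 bases were unshared, then 71.3% of those of over 100 to 200 bases, 64.8% of those of over 200 to 400 bases and 34.6% of those over 400 bases. Peaks under 10 bases numbered 89 among the unshared and 10 among the shared. The fold enrichment over background that the authors' peak caller gave had a median of 14.6 (middle range 8.91 to 27.0) in unshared peaks and 16.3 (8.41 to 37.8) in shared case peaks. The authors' false discovery rate had a median of 12.1% in unshared peaks and 12.9% in shared ones, and was at most 5% for 2 peaks of each kind. Throughout the case list it reached 25.9%, while in the control list it reached 7.52%.

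Unshared case peaks seldom recurred in the numbered lists. At least 1 base was shared with the list of 1624 peaks by 83 of 11171 unshared peaks (0.743%, 0.592 to 0.920%), against 239 of 6106 shared case peaks (3.91%, 3.44 to 4.43%). For the list of 2424 peaks the counts were 172 unshared (1.54%, 1.32 to 1.79%) and 288 shared (4.72%, 4.20 to 5.28%). For the list of 1052 peaks they were 82 unshared (0.734%, 0.584 to 0.910%) and 157 shared (2.57%, 2.19 to 3.0%). For the list of 1127 peaks they were 53 unshared (0.474%, 0.356 to 0.620%) and 218 shared (3.57%, 3.12 to 4.07%). Shared case peaks were chosen for meeting a peak of another list, so their higher recurrence is a description and not a test. Control peaks that met no case peak recurred at 2.10, 2.01, 0.921 and 1.72% in the same order of lists.

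A numbered list could be met at all only as far as it reached. The longest, of 2424 peaks, lay in 2072 genes, and the shortest, of 1052 peaks, in 892. The authors' false discovery rate was 100% for every peak of the lists of 1624, 1127 and 1052 peaks. In the list of 2424 peaks it was below 100% for 194 peaks and lowest at 52.6%. Seen from these lists, unshared case peaks met 6.93% of the list of 2424 peaks, 5.11% of that of 1624, 4.61% of that of 1127 and 7.70% of that of 1052. Shared case peaks, fewer in number, met 11.8, 14.7, 19.3 and 15.02% in the same order of lists. Of the case peaks that touched a list, 37.4, 25.8, 19.6 and 34.3% were unshared in that order, against 64.7% of all case peaks.

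Recurrence in at least 1 of the 4 lists was seen for 2.63% of unshared peaks (2.34 to 2.95%) and for 553 of the shared case peaks (9.06%, 8.35 to 9.80%). In all 4 lay 8 unshared peaks (0.0716%, 0.0309 to 0.141%) and 66 shared ones (1.08%, 0.837 to 1.37%). The control peaks that met no case peak recurred in at least 1 list in 545 of 11073 cases (4.92%), and in all 4 in 21 cases. Length moved with recurrence but the gap stood within each length class. Among peaks of up to 100 bases 1.23% of the unshared and 6.23% of the shared recurred in at least 1 list, among those of over 100 to 200 bases 1.96 and 6.56%, among those of over 200 to 400 bases 3.31 and 8.26%, and among those over 400 bases 6.49 and 12.7%. The fold enrichment sorted recurrence little: in 4 equal groups of unshared peaks from the lowest to the highest fold, 2.90, 2.27, 2.40 and 2.95% recurred in at least 1 list. In 4 such groups from the lowest to the highest false discovery rate, 2.41, 2.07, 2.36 and 3.63% did.

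**Figure D1:**
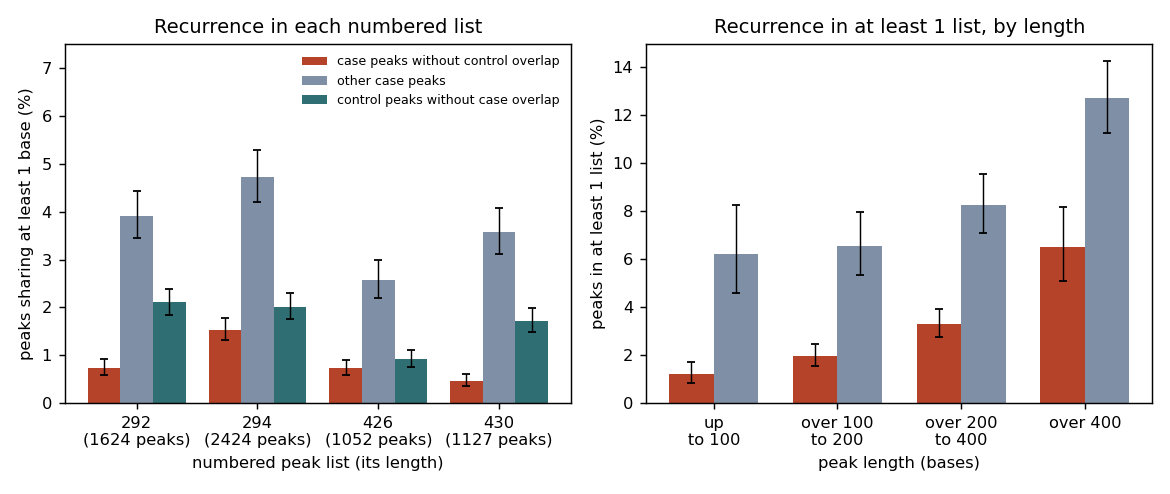
Percent of peaks that shared at least 1 base with each numbered list (left, list on the horizontal axis) and with at least 1 list by peak length in bases (right); bars are shares and error bars 95% exact intervals, for unshared and shared case peaks and, on the left, also for control peaks that met no case peak. Unshared case peaks stand at 0.474 to 1.54% on the left, below shared case peaks at 2.57 to 4.72%, and stand lower in each of the 4 length classes on the right.

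The 8 unshared peaks found in all 4 numbered lists lay in 8 different genes. The strongest by far was in Tnpo2, a nuclear import receptor (chr8:85050032-85050161, 130 bases). Its enrichment was 3003-fold in the case list, and the overlapping peaks of the lists of 2424, 1624, 1127 and 1052 peaks stood at 2037, 1473, 1027 and 2891-fold. It lay in the middle of the gene and 197 bases from a control peak. The second was in Eif4g1, the scaffold of the cap-binding translation initiation complex (chr16:20684022-20684181). It was 106-fold enriched in the case list and 264, 314, 159 and 156-fold in the numbered lists in the same order, in a gene with 10 control peaks elsewhere. In the input, Eif4g1 stood at 65.4 FPKM in the library labelled case and at 17.5 FPKM in the library labelled control.

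The other 6 were weaker in the case list. Snord88a, a small nucleolar RNA (chr7:44250021-44250716), was 16.9-fold enriched in the case list and between 4.52 and 234-fold in the numbered lists, above Eif4g1 in the list of 1127 peaks. The peak of Fam217b (chr2:178422276-178422734) was 15.7-fold in the case list and 3.75 to 14.7-fold in the others, although the gene had 0.122 FPKM in the control input and close to 0 in the case input. Sned1, an extracellular matrix protein (chr1:93271599-93271703), was 10.8-fold. Npr1, the receptor of atrial natriuretic peptide (chr3:90465736-90465866), was 4.49-fold in the case list and 8.12 to 13.1-fold in the numbered lists, and its peak contained the transcript start. Npr1 stood at 1.63 FPKM in the case input and at 10.6 FPKM in the control input. Wrn, a RecQ helicase (chr8:33342977-33343070), and Tspan14, a tetraspanin (chr14:40918630-40918680), were 3.93-fold each. Of the 7 that could be placed in a gene, none lay in its last 10%.

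A further 12 unshared peaks recurred in 3 of the 4 lists. The highest was in Serpina3f, a serine protease inhibitor of a family of near-identical neighbours, so reads there may be split among copies (chr12:104220209-104220422, 119-fold). The others lay in Hs3st1, Ankrd1, Ehbp1l1, Ago3, Dnaja4, Arfgap3, Tpp2, Nfrkb, Mylip, 4931429I11Rik and Tpm1, at 5.62 to 41.6-fold. Hs3st1, a heparan sulfate sulfotransferase (chr5:39613949-39614584, 41.6-fold), was the highest of those in the last 10% of a gene. In exactly 2 lists lay 48 unshared peaks and in exactly 1 lay 226, with median lengths of 337 and 297 bases, and the 10877 in none had a median of 189 bases.

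High enrichment alone did not bring a peak into another list. Of the unshared peaks in none of the 4, the 5 highest, 1 per gene, were those of Zfp791, a zinc finger protein (chr8:85112210-85112270, 567-fold), Neurl3, a ubiquitin ligase (chr1:36265862-36266510, 414-fold), Aim2, a sensor of cytosolic DNA (chr1:173464971-173465341, 401-fold), Litaf, an endosomal membrane protein (chr16:10975427-10975467, 385-fold), and Cd5l, a secreted protein of macrophages (chr3:87367541-87367879, 330-fold). Of these 5 genes, Neurl3 and Cd5l differed most in input between the libraries, with log2 differences of -2.95 and -4.37. Neurl3 stood at 0.439 FPKM in the case input and 10.1 FPKM in the control input, and Cd5l at 4.03 FPKM in the case input and 103 FPKM in the control input. The input of Aim2 and Zfp791 rested on 1 fragment each in case, and on 11 and 3 in control. Litaf was at 10.96 FPKM in the case input and 15.99 FPKM in the control input.

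Along the gene, unshared case peaks gathered at the 3' end as shared ones did. No exon annotation was used, so place is the position of the peak midpoint between the RefSeq start and end of the gene, introns included, and whether a peak is exonic, intronic or in a UTR was not determined. Of the 11171, 10804 (96.7%) could be placed. In the last 10% of the gene lay 3155 of them (29.2%, 28.3 to 30.1%), against 1895 of 5914 placed shared case peaks (32.0%, 30.9 to 33.2%). In its first 10% lay 795 unshared peaks (7.36%, 6.87 to 7.87%) and 281 shared ones (4.75%, 4.22 to 5.32%). A RefSeq transcript start lay inside 183 of all 11171 unshared peaks (1.64%, 1.41 to 1.89%) and inside 53 of all 6106 shared ones (0.868%, 0.651 to 1.13%). Unshared peaks were thus somewhat more often at the 5' end and somewhat less often at the 3' end than shared ones.

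Length again moved with place. In the last 10% of the gene lay 11.8% of placed unshared peaks of up to 100 bases, 22.4% of those of over 100 to 200, 44.7% of those of over 200 to 400 and 48.6% of those over 400 bases, against 11.5, 14.4, 40.8 and 43.8% of shared case peaks of the same lengths. Within each class the unshared share was the higher one, in the shortest class by less than the counting error, whereas over all lengths it was the lower one, since shorter peaks are more common among the unshared. The control peaks that met no case peak lay in the last 10% of the gene in 29.4% and in the first 10% in 8.81% of placed cases. Protein-coding genes held 10841 of the unshared peaks (97.0%) and 5902 of the shared ones (96.7%). Long non-coding RNAs held 45 unshared peaks in 24 genes and 15 shared ones in 9 genes.

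**Figure D2:**
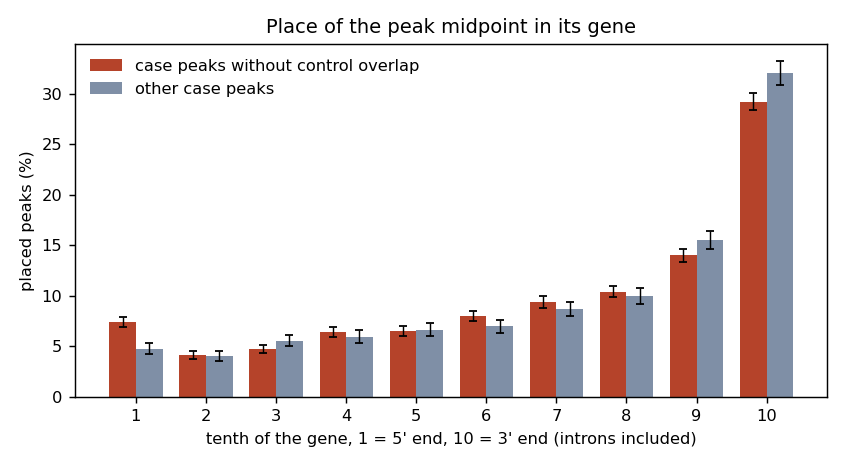
Percent of placed peaks with their midpoint in each 10% step along the gene, from the 5' end (1) to the 3' end (10), for unshared and shared case peaks; error bars are 95% exact intervals. Both sets climb towards the 3' end, with 29.2% of unshared and 32.0% of shared peaks in the last 10% of the gene, while the first 10% holds 7.36% of unshared and 4.75% of shared peaks.

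Most unshared case peaks lay in genes that the control list marked at another place. Of the 6426 genes, 3691 (57.4%) had a control peak elsewhere and 2735 (42.6%) had none. Among those with a mean input of at least 1 FPKM, 3272 of 4824 had one, beside 6282 of all 9574 gene symbols at that level. Without that minimum, 7301 of 22481 symbols had a control peak. The genes with a control peak held 7105 of the unshared peaks (63.6%), at a median of 4280 bases from the nearest control peak of the gene, and those without one held 4066 (36.4%). A single unshared peak was the rule, in 3819 genes, while 1505 genes had 2, 611 had 3, 245 had 4 and 246 had 5 or more.

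The genes with the most unshared peaks were long. Kcnq1ot1, the imprinted antisense RNA of the Kcnq1 locus (chr7:143213111-143296547), had 18 unshared peaks beside 6 shared case peaks and 19 control peaks, which is 21.6 unshared peaks per 100 kb. It lies antisense to Kcnq1, and without the strand of the reads the 2 genes cannot be told apart there. Syne2 and Syne1, giant proteins of the nuclear envelope, had 17 and 12 unshared peaks beside 20 and 6 control peaks. Macf1 and Dst, which link actin and microtubules, had 16 and 15 beside 20 and 14 control peaks. Sptbn1, a spectrin, had 12 beside 8 control peaks.

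A further 3 of the 10 genes with the most unshared peaks had few peaks in the control list. Ptprb, a receptor phosphatase of endothelium, had 15 unshared peaks, 1 shared case peak and 3 control peaks. Mrc1, the mannose receptor of macrophages and sinusoidal endothelium, had 12 unshared peaks, 2 shared case peaks and 3 control peaks. Stab2, a scavenger receptor of liver sinusoids, had 10 unshared peaks, 3 shared case peaks and 3 control peaks. All 3 were lower in the input labelled case: Ptprb at 2.80 FPKM in the case input and 24.5 FPKM in the control input, Mrc1 at 1.97 FPKM in the case input and 23.7 FPKM in the control input, and Stab2 at 2.96 FPKM in the case input and 41.9 FPKM in the control input. Among the others described, Macf1, Sptbn1 and Syne1 also stood lower in the case input (log2 differences -0.81, -1.49 and -0.95) and Syne2 and Dst higher (0.59 and 0.61).

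**Figure D3:**
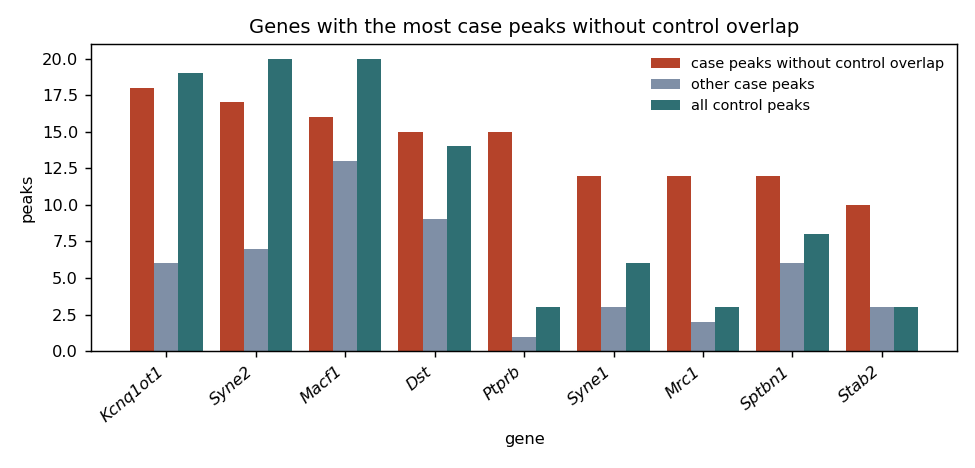
Number of peaks (vertical axis) in 9 of the 10 genes with the most unshared case peaks, split into unshared case peaks, shared case peaks and all control peaks. Ptprb, Mrc1 and Stab2 have 15, 12 and 10 unshared case peaks with 3 control peaks each, while Kcnq1ot1, Syne2 and Macf1 have 19 to 20 control peaks.

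Input levels stood furthest from the median of all genes where a gene had peaks in only 1 of the case and control lists. Levels were compared as log2(FPKM + 1) in case less that in control, over the 9584 genes with a mean of at least 1 FPKM. Of all these, 2260 (23.6%) were higher in case by 2-fold or more and 1264 (13.2%) lower, with a median of 0.41. Of the 4824 measured genes with an unshared case peak, 793 (16.4%) were higher and 843 (17.5%) lower, with a median of 0.25. Of the 1552 with an unshared case peak and no control peak, 143 (9.21%) were higher and 557 (35.9%) lower, with a median of -0.31. Where the gene had a control peak elsewhere, 650 of 3272 (19.9%) were higher and 286 (8.74%) lower, with a median of 0.39. Genes with control peaks and no case peak stood at the other end, with 685 of 1576 (43.5%) higher, 47 (2.98%) lower and a median of 0.88. Among the 1741 genes with no peak, 324 (18.6%) were higher and 300 (17.2%) lower, with a median of 0.27, near the genes with an unshared case peak as a whole. The input used as background by the peak caller is not given in the sources used here, and if it was the same libraries, input level and peak calls are not independent measures. No label states that the peak list and the input column of the same name came from the same liver, and if the names do not pair them, each value that sets peaks of a list beside an input level compares different livers. How far input level sets the calls was not tested.

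The number of higher genes depended on the scaling of the inputs. With the non-mitochondrial totals set equal, the median of all genes was -0.15. Of the genes with an unshared case peak, 210 were then higher (4.35%, all genes 8.01%) and 1279 lower (26.5%, all genes 20.9%). Those of them without a control peak were 37 higher and 718 lower (46.3%). For all genes with an unshared case peak, quantile normalization gave 471 higher (9.76%, all genes 14.2%) and 992 lower (20.6%, all genes 15.8%). Centring on the median gave 319 higher (6.61%, all genes 11.6%) and 1146 lower (23.8%, all genes 18.4%). Under each of these scalings, genes with an unshared peak and no control peak were more often lower (46.3, 38.3 and 44.1%) than all measured genes (20.9, 15.8 and 18.4%). Without the minimum of 1 FPKM, 436 of the 2664 such genes (16.4%) were at 0 in the case input and 204 (7.66%) at 0 in the control input. Both shares were below those of all 22551 genes, of which 9656 (42.8%) were at 0 in the case input and 8424 (37.4%) in the control input.

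Ordered by the input difference, the share of genes with an unshared case peak and no control peak changed stepwise. It was 56.0% of the 84 genes at a log2 difference of -3 or less, 54.7% of 351 between -3 and -2, 38.4% of 829 between -2 and -1, and 18.8% of 1841 between -1 and 0. On the side higher in case it was 11.99% of 4219 genes between 0 and 1, 6.96% of 1926 between 1 and 2, 2.64% of 303 between 2 and 3, and 3.23% of the 31 at 3 or more. The share with control peaks and no case peak ran the other way over the same bins, from 1.19% in the lowest to 58.1% in the highest. Unshared case peaks outnumbered control peaks 7.13 to 1 in the lowest bin, with 171 against 24, and were outnumbered in the bin from 2 to 3, with 99 against 1013.

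**Figure D4:**
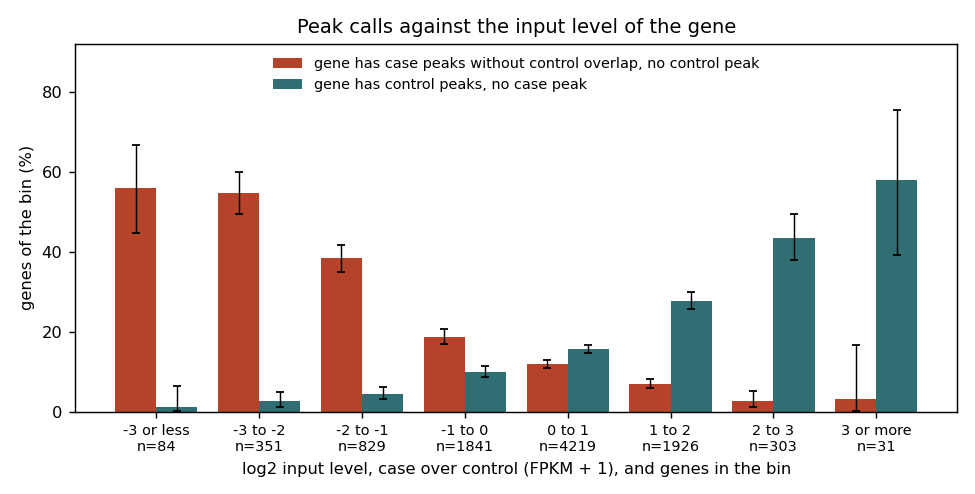
Percent of genes (vertical axis) with unshared case peaks and no control peak, and with control peaks and no case peak, by bins of the log2 input difference, case over control, of FPKM + 1; n is the number of genes and error bars are 95% exact intervals. The first share is 56.0% in the lowest bin and 3.23% in the highest, and the second is 1.19% in the lowest bin and 58.1% in the highest.

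Markers of Kupffer cells, sinusoidal endothelium and stellate cells carried many unshared case peaks, and T, NK and B cell markers fewer. The 4 lists of such markers (Kupffer cell and macrophage, sinusoidal endothelial, stellate and matrix, and T, NK and B cell genes) held 65 genes found in the input table, of which 52 (80.0%) had an unshared case peak and 39 had one and no control peak. Among the 9574 symbols with a mean of at least 1 FPKM, 50.3% had an unshared case peak, and among all 22481 symbols of the input table, without a minimum, 28.0% did. The 65 genes held 144 unshared case peaks, 13 shared case peaks and 21 control peaks. Their input levels moved the other way: of 49 measured, 0 were higher and 47 lower by 2-fold or more in case. Over all measured genes 23.6% were higher and 13.2% lower. The measured markers had a median log2 difference of -2.75. The FPKM of the 4 lists summed to 87.1 in the case input and 1345 in the control input. In bulk liver, fewer cells of a type and less RNA per cell cannot be told apart.

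By cell type, the Kupffer cell and macrophage list had an unshared case peak in 18 of its 19 genes, 59 in all, against 5 shared case peaks and 6 control peaks. All 16 measured genes were lower in the case input, at a median log2 difference of -4.46 and a summed level of 22.1 FPKM in the case input against 757 FPKM in the control input. Cd163, a scavenger receptor for haemoglobin, had 6 unshared peaks, Marco, a scavenger receptor, 5, and Ctss, a lysosomal protease, 5. Clec4f, the lectin whose start is printed above, had 4, at up to 593-fold enrichment, and stood at 2.36 FPKM in the case input and 89.9 FPKM in the control input. Csf1r, the receptor of macrophage colony-stimulating factor, had 3, with 0.0299 of a fragment in the case input, in effect no read, and 37.5 FPKM in the control input. Each other Kupffer cell and macrophage gene had a value above 0 in both inputs.

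The sinusoidal endothelial list had an unshared peak in 14 of 16 genes, 46 in all, against 5 shared case peaks and 9 control peaks. All 16 were lower in the case input, at 41.1 FPKM in sum against 378 FPKM in the control input. Kdr, a receptor of vascular endothelial growth factor, had 8 unshared peaks beside 3 control peaks, and Cdh5, the cadherin of endothelial junctions, 3 beside none. The stellate and matrix list had one in 14 of 15 genes, 30 in all, against 3 shared case peaks and 5 control peaks, and 11 of its 12 measured genes were lower in the case input. Reln and Rgs5 had 4 unshared peaks each. Of the 15 T, NK and B cell genes, 6 had an unshared peak, 9 peaks in all, and 4 of the genes were at 0 in the case input and 0 were at 0 in the control input. Among those 4, Cd3e, a subunit of the T cell receptor complex, had an unshared case peak of 57.3-fold with an input of 0 FPKM in case and 1.66 FPKM in control. No endothelial, stellate or matrix gene was at exactly 0 in either input. The part of these input differences in the peak calls was not tested.

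Hepatocyte genes showed the reverse. Of 30 genes of hepatocyte metabolism, 3 had an unshared case peak (10%, against 50.3% of all symbols of at least 1 FPKM), with 9 such peaks, 18 shared case peaks and 205 control peaks in the list. All 30 were measured, of which 26 were higher and 0 lower by 2-fold or more in case (over all measured genes 23.6% were higher), at a median log2 difference of 1.98. The 3 genes were Acaca, which makes malonyl-CoA for fatty acid synthesis (5 unshared and 8 control peaks), Abcb11, the bile salt export pump (2 and 16), and Fgb, the beta chain of fibrinogen (2 and 3). Cps1, the first enzyme of the urea cycle, had no unshared case peak and 28 control peaks. Lpin1, a phosphatidate phosphatase, had none and 15, and Fasn, the fatty acid synthase, none and 11. Their input levels were 533 FPKM in case and 63.5 FPKM in control for Cps1, 74.3 FPKM in case and 4.17 FPKM in control for Lpin1, and 54.6 FPKM in case and 4.20 FPKM in control for Fasn.

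Immediate early genes, which are switched on within minutes of a stimulus, had an unshared case peak in 14 of 25 genes, 25 peaks in all, beside 11 shared case peaks and 22 control peaks. Of 23 measured, 0 were higher and 13 lower by 2-fold or more in case (over all measured genes 23.6% were higher and 13.2% lower). Their median log2 difference was -1.29, and the list summed to 531 FPKM in the case input against 1157 FPKM in the control input. Klf4 and Klf6, zinc finger transcription factors, had 4 and 3 unshared peaks, up to 87.1 and 131-fold, and no other case or control peak. Klf4 stood at 1.49 FPKM in the case input and 15.1 FPKM in the control input, and Klf6 at 1.99 FPKM in the case input and 21.2 FPKM in the control input. Atf3, a stress-induced transcription factor, had 2 unshared peaks, 1 shared case peak and 1 control peak. Fos and Junb, subunits of AP-1, had 1 unshared peak each and no control peak, at 60.9 FPKM in the case input and 150.1 FPKM in the control input for Fos and 28.99 FPKM in the case input and 87.4 FPKM in the control input for Junb. The share of the list with an unshared peak, 56.0%, was near the 50.3% of all symbols above 1 FPKM.

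Transcripts known from other work to carry m6A had an unshared case peak in 11 of 21 genes (52.4%, near the 50.3% of all symbols of at least 1 FPKM), 16 in all, beside 10 shared case peaks and 25 control peaks. Of 18 measured, 2 were higher and 9 lower by 2-fold or more in case (over all measured genes 23.6% were higher and 13.2% lower). Jun, Myc, Fos, Junb and Klf4 are also in the immediate early list, and of these all but Jun were among the lower genes. Socs3, a brake on cytokine signalling, had 1 unshared peak of 17.7-fold and no control peak, while Ppara, a nuclear receptor of fatty acid oxidation, had 1 unshared peak of 3.36-fold and 7 control peaks. Cry1, a repressor of the circadian clock, had 1 unshared peak of 19.1-fold and no control peak although it was higher in the case input, at 3.94 FPKM in case and 1.06 FPKM in control. The m6A machinery had one in 12 of 24 genes (50%), and 17 of the 24 reached 1 FPKM. Over all symbols the share was 50.3% with that minimum and 28.0% without it. The list held 25 unshared case peaks, 25 shared case peaks and 44 control peaks. The 7 in 1110037F02Rik, the older symbol of the writer subunit Virma, were its only peaks in either list, at 10.7 to 59.7-fold, with similar inputs of 2.85 FPKM in case and 2.02 FPKM in control. The writer subunit Zc3h13 had 2 unshared case peaks, 8 shared case peaks and 12 control peaks, and the demethylase Fto 2, 0 and 1.

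Histone lysine methyltransferases and demethylases had an unshared case peak in 27 of 31 genes (87.1%, against 50.3% of all symbols of at least 1 FPKM), with 71 unshared case peaks, 71 shared case peaks and 155 control peaks. The control list marked them as widely, with a peak in 28 of the 31 genes, against 6282 of the 9574 symbols of at least 1 FPKM. Of the 155 control peaks, 85 met no case peak. Inputs of these genes differed little, with 3 of 31 at least 2-fold higher and 1 lower in case. Over all measured genes 23.6% were higher and 13.2% lower. Kmt2c and Kmt2a, methyltransferases of histone H3, had 9 and 6 unshared peaks beside 11 and 6 control peaks, and Kmt2d 5 beside 16. Kdm6b and Kdm3a, demethylases, had 4 and 3 unshared peaks and no control peak. Kdm6b was the 1 lower gene of the list, at 3.53 FPKM in the case input and 8.67 FPKM in the control input, while Kdm3a stood at 2.40 FPKM in case and 3.41 FPKM in control. Zinc finger genes, counted by the prefix Zfp, had one in 158 of 360 (43.9%), of which 127 reached 1 FPKM, beside 28.0% of all symbols without a minimum and 50.3% of those of at least 1 FPKM, with 223 unshared case peaks, 142 shared case peaks and 300 control peaks.

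**Figure D5:**
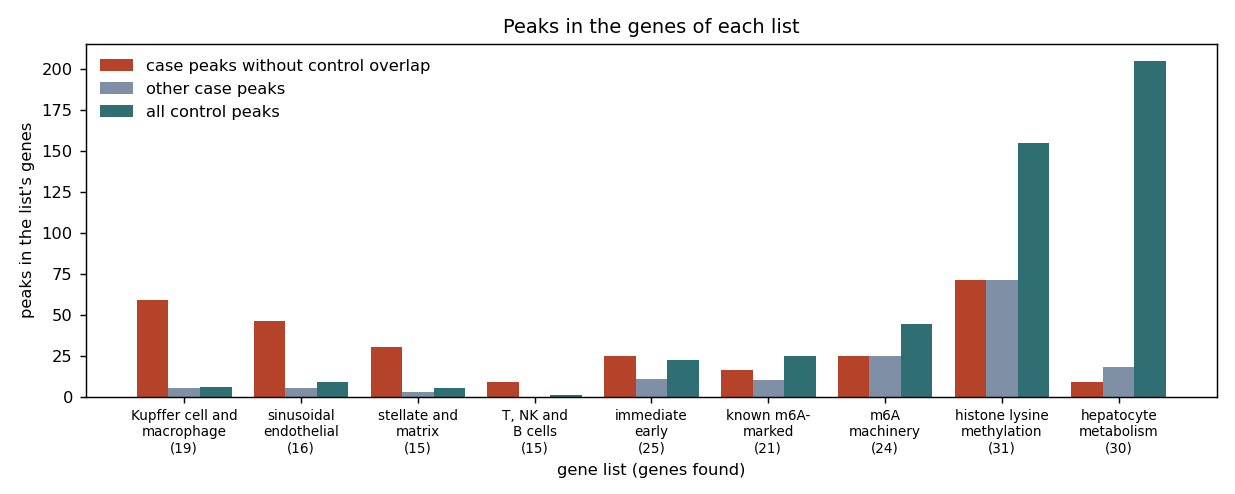
Number of unshared case peaks, shared case peaks and all control peaks (vertical axis) in the genes of each list, with the number of genes found in parentheses. In the Kupffer cell and macrophage, sinusoidal endothelial, stellate and matrix, and T, NK and B cell lists the unshared case peaks are the most numerous kind (59, 46, 30 and 9), while in hepatocyte metabolism genes the control peaks are (205, against 9 unshared case peaks).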

How the data were processed

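Livers of Mettl3 cKO and wild-type mice were profiled by m6A immunoprecipitation and input RNA-seq. HISAT2 2.0.4, cutadapt 1.9.3, Cufflinks, Cuffdiff and build mm10 are named in the submitters' processing notes, without roles. Per the file headers, the authors deposited for each peak its coordinates, length, fold enrichment (a ratio), a score (a scaled negative log10 p-value) and a false discovery rate in percent. Peak names begin with MACS, with settings and background not given in the sources used here. The authors deposited inputs as FPKM and as a signal headed as counts, whose low values are multiples of a step that differs between libraries. Dividing by it gave whole fragments (within 0.02) for 90.0% of values in case and 91.1% in control, which served for depth. The columns and lists were given to genotypes by the names case and control. 8 columns of an expression table matched no label and were not used.

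Deposited starts count from 0 and 1 was added for printing. 2 peaks were shared where at least 1 base was common. Gene spans, biotypes, 300-base start windows (250 bases before to 50 after), 1005 miRNA hairpins and 1340 snoRNA genes came from RefSeq GRCm38.p6. For inputs, 13 mitochondrial genes were set aside, the pseudocount was 1, the minimum mean was 1 FPKM and a gene counted as higher or lower at 2-fold. With 1 library per genotype no test was run, and the intervals take no account of sequencing depth or of differences between livers. The overlap and counting steps were tested on simulated data. The members and gene lists were chosen with earlier results of these data known. Named genes are the 10 with the most members, of which 1 is not reported here, members in all 4 and in 3 numbered lists, the 5 of highest fold in none, those next to the edge of the rule, the highest in each place, and genes of the lists. The input bins and the snoRNA and miRNA counts were chosen after the data were seen. Alternatives were another rule for overlap, a stricter false discovery rate or fold, and other pseudocounts, minimums and scalings of the input. Python 3.11.15, pandas 2.3.3, NumPy 2.4.6 and SciPy 1.17.1 were used.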

Additional observations from a re-analysis of the deposited data

How the results depend on the processing

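The number of unshared case peaks was 11171 and ranged from 7889 (fold of at least 10) to 11941 (shared only where at least 50% of the case peak was covered). Counting a region as recurring only where at least 50% of it was covered gave 0.573% for the list of 1624 peaks, 0.976% for that of 2424 and 0.528% for that of 1052. With the false discovery rate limited to 15%, the list of 1127 peaks gave 0.338%. The median length was 200 bases with the 50% rule and 200 bases with a fold of at least 10. Genes with an unshared peak that were lower in the case input numbered 843 of 4824 (17.5%, all genes 13.2%). With a minimum of 5 FPKM they numbered 282 of 1903 (14.8%, all genes 8.96%), and with equal totals 1279 of 4824 (26.5%, all genes 20.9%). Those higher numbered 793 (16.4%, all genes 23.6%), and with a minimum of 5 FPKM 495 (26.0%, all genes 37.4%). With equal totals 210 were higher (4.35%, all genes 8.01%), with quantile normalization 471 (9.76%, all genes 14.2%) and with median centring 319 (6.61%, all genes 11.6%). The share in the last 10% of the gene stayed between 28.7 and 29.7% under the alternatives run. No paired analysis was possible because each genotype had 1 peak list and 1 input column, and leaving out a replicate could not be run for the same reason.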

Other observations

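The authors' fold values of unshared case peaks fell on a grid more often than those of shared ones. Of folds under 60, 5485 of 10583 unshared case peaks (51.8%, 50.9 to 52.8%) were whole multiples of 0.5618 within 0.0051, against 1055 of 5243 shared case peaks (20.1%, 19.0 to 21.2%). In the control list the step was 0.7712, and 3702 of 8991 control peaks without case overlap (41.2%) and 1313 of 3849 control peaks with it (34.1%) lay on it. Among unshared case peaks the share on the grid was 52.0% for those in none of the 4 numbered lists and 45.3% for those in at least 1. What sets the grid was not tested.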
